A study of Mus musculus with 8 samples.

Results

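The genes described here are the variable (V) segments of the immunoglobulin light chain: every gene whose symbol began with Igkv or Iglv and whose transcript was annotated as a functional V gene. The rule gave 104 of the 52661 genes in the tables, of which 101 were kappa segments and 3 were lambda segments (Iglv1, Iglv2 and Iglv3). The cells were intraepithelial lymphocytes of C57BL/6 mice, the immune cells lodged in the gut epithelium, sorted for the leukocyte surface protein CD45. They were cultured for 24 h in RPMI medium with 10% serum, with 2 µg/ml recombinant osteopontin (4 libraries) or without it (4 libraries, called null). Osteopontin is a secreted phosphoprotein that binds CD44 and integrins, and the study asked how the expression profile of the cells differed in its presence. Within each group the libraries are named 1, 2, A and B, and the labels leave unstated whether a name marks a mouse, a culture or a batch, and the age and sex of the mice. The p-values therefore measure the spread between libraries, which may be technical.

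An antibody light chain is encoded by a V segment that is joined to a J segment by recombination in a developing B cell, upstream of a kappa or lambda constant gene. Each B cell normally expresses 1 rearranged light chain, and its progeny keep it, so the V segments found in bulk RNA record which B lineage cells contributed RNA. Plasma cells, the antibody-secreting end stage, hold far more immunoglobulin mRNA per cell than resting B cells, and those of the gut mostly make IgA. In bulk RNA, fewer cells using a segment and less RNA per cell cannot be told apart. In laboratory mice kappa chains predominate over lambda chains.

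The kappa segments lie on chromosome 6 between 67555497 and 70704177 (GRCm38, GENCODE M21 annotation), upstream of Igkj1 at 70722562 and of the constant gene Igkc at 70726435 to 70726966. Of the 100 kappa segments with a position there, 38 are on the plus strand, the strand of Igkc, and 62 on the minus strand. The numbers after the hyphen in the kappa symbols follow this order, with low numbers nearest to the J segments. The 3 lambda segments lie on chromosome 16 between 19085017 and 19260859, on the minus strand.

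The sequences below are the germline 3′ ends of the 12 most used segments and of Iglv2, read from the GENCODE M21 transcripts. They are shown because this end, from the conserved cysteine codon onward, enters the antigen-binding loop CDR3. They also show how alike these segments are at that end. Capitals run from that cysteine codon to the last base of the segment, 5′ to 3′.

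Iglv1: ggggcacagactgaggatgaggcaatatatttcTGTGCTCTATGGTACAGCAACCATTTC

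Iglv2: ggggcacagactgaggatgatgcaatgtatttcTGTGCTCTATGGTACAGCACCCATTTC

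Igkv1-110: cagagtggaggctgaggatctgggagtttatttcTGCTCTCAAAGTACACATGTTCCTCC

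Igkv1-117: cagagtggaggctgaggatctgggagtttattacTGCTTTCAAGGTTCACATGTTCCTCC

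Igkv8-27: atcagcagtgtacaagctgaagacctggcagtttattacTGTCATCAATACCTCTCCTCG

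Igkv8-21: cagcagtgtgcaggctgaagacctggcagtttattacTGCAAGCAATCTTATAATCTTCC

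Igkv8-30: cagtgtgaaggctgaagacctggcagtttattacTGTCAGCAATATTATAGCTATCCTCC

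Igkv6-15: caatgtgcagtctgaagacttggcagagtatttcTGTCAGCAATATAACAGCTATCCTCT

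Igkv4-59: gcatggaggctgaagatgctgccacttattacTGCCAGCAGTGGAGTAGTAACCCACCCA

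Igkv4-72: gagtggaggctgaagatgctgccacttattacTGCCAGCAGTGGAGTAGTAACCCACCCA

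Igkv4-57-1: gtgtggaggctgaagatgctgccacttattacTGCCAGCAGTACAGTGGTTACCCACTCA

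Igkv5-39: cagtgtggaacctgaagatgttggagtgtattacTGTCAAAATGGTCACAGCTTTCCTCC

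Igkv12-44: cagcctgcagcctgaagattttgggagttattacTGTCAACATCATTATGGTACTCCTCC

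The capitals of Igkv4-59 and Igkv4-72 are identical over 28 bases. Those of Iglv1 and Iglv2 differ at 1 of 27 bases, and those of Igkv1-110 and Igkv1-117 at 3 of 26. Over their whole aligned transcripts Iglv1 and Iglv2 were 97.1% identical and Igkv1-110 and Igkv1-117 were 97.5% identical. Of all 31-base words in Iglv1, 63.2% occurred in no other light chain V gene or pseudogene, and the rest were shared with Iglv2. Over the 104 members the median share of such unique words was 53.5%, and 47 members had under 50%. Salmon divides reads that fit several transcripts, so the split between close relatives such as Igkv4-59, with 13.0% unique words, and Igkv4-71 is uncertain.

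Libraries held 49108969 to 71399847 estimated reads, of which 40294 to 144333 (0.0674% to 0.202%) were on light chain V segments. The floor set by counting error, taken as 3 reads, lay at 0.0420 to 0.0611 CPM (reads scaled to a common library total), or 0.00208% to 0.00745% of the light chain V reads. The widest 95% Wilson interval of a usage share was 0.437 percentage points to each side, which covers counting error only. Of the 104 members, 98 had at least 10 reads in at least 1 library, 31 had them in all 8, and 4 were listed at 0 in all 8. The sorted cells carried the markers of their label: the 9 T cell genes, among them Cd8a, Itgae and the CD45 gene Ptprc, summed to 6151 to 6567 CPM with osteopontin and 5834 to 6283 CPM in null libraries. The 6 fibroblast genes summed to 6.63 to 24.3 CPM with osteopontin and 6.28 to 290.2 CPM in null libraries, where libraries 1 and A were high; their part in the results was not tested.

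The light chain V segments together had 901, 1757, 1870 and 821 CPM in osteopontin libraries 1, 2, A and B, against 1130, 1615, 2021 and 674 CPM in null libraries 1, 2, A and B. Both groups spanned nearly the same range, and in both the libraries named 2 and A were high and those named 1 and B were low. The means were 1337 ± 553 CPM with osteopontin and 1360 ± 585 CPM in null libraries (SD, n = 4 each). The constant gene of the kappa chain, Igkc, was likewise at 1149 ± 432 CPM with osteopontin and 1148 ± 396 CPM without (SD, n = 4 each). There were 0.822 ± 0.0570 light chain V reads per constant-gene read with osteopontin and 0.803 ± 0.0715 in null libraries.

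Of the 13 plasma cell markers, only Jchain and Igha were examined for a correlation with the light chain V level, and the level followed both. Jchain, which encodes the chain that links IgA into dimers and IgM into pentamers, had 410, 882, 958 and 383 CPM in osteopontin libraries 1, 2, A and B, against 518, 773, 1020 and 338 CPM in null libraries 1, 2, A and B. This is the same order of libraries as for the light chain V level, also among the 4 libraries named 1 or B, which were low in both, and the 4 named 2 or A, which were high in both. Over the 8 libraries Pearson's r was 0.997 and Spearman's rho was 1 (exact permutation test, two-sided, adjusted p = 9.92e-05 for both, over 4 relations), and r was 0.996 without the 2 libraries farthest from the median of Jchain. The permutation tests of these relations treat the 8 libraries as independent, which would not hold if a name marks a shared source.

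Igha, the IgA heavy chain constant gene, gave r = 0.982 and rho = 0.976 with the light chain V level (exact permutation test, adjusted p = 9.92e-05 and 5.29e-04), and r was 0.977 without its 2 farthest libraries. Ighm, the IgM heavy chain constant gene, gave r = −0.54 and rho = −0.52 (exact permutation test, p and adjusted p = 0.101 and 0.197), and r = 0.20 without the 2 farthest, so that the negative sign rests on those libraries. No correlation was computed for the other plasma cell markers, and they did not all behave alike. Sdc1, Derl3, Prdm1 and Xbp1 were higher in the libraries named 2 and A than in those named 1 and B of both groups. Irf4, Mzb1, Tnfrsf17, Pou2af1, Eaf2, Fkbp11 and Txndc5 were not. Irf4, a transcription factor of plasma cells and activated lymphocytes, had 53.3, 39.8, 41.0 and 56.2 CPM in osteopontin libraries 1, 2, A and B, against 49.2, 29.2, 48.1 and 52.6 CPM in null libraries 1, 2, A and B, with its lowest value of each group in the library named 2. Mzb1, a chaperone gene of B and plasma cells, was higher in osteopontin library 1, at 37.5 CPM, than in osteopontin libraries 2 and A, at 31.5 and 31.9 CPM. All these levels come from the same libraries and are parts of the same totals.

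The 12 B cell markers, among them Ms4a1, Cd79a and Pax5, summed to 1535 ± 308 CPM with osteopontin and 1956 ± 429.6 CPM in null libraries (SD, n = 4 each), and the 13 plasma cell markers to 5098 ± 1942 CPM with osteopontin and 5198 ± 2393 CPM in null libraries. A large part of each sum came from 1 gene. Ighm averaged 828 CPM with osteopontin and 1012 CPM in null libraries within the B cell sum. Igha averaged 3990 CPM with osteopontin and 4076 CPM in null libraries within the plasma cell sum. The sums of both lists overlapped between groups, and their part in segment usage was not tested. The recombinase genes that rearrange light chains were at or near 0: Rag1 averaged 0.127 CPM with osteopontin and 0.207 CPM without, and Rag2 was at 0 in all 4 osteopontin libraries and in 3 of 4 null libraries. In the same list of 7 rearrangement and surrogate light chain genes, Vpreb1, Vpreb2 and Igll1 were at or near 0 as well. Dntt and Vpreb3 were not: Dntt averaged 6.26 CPM with osteopontin and 8.65 CPM without, and Vpreb3 2.29 CPM with osteopontin and 3.59 CPM without.

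**Figure D1:**
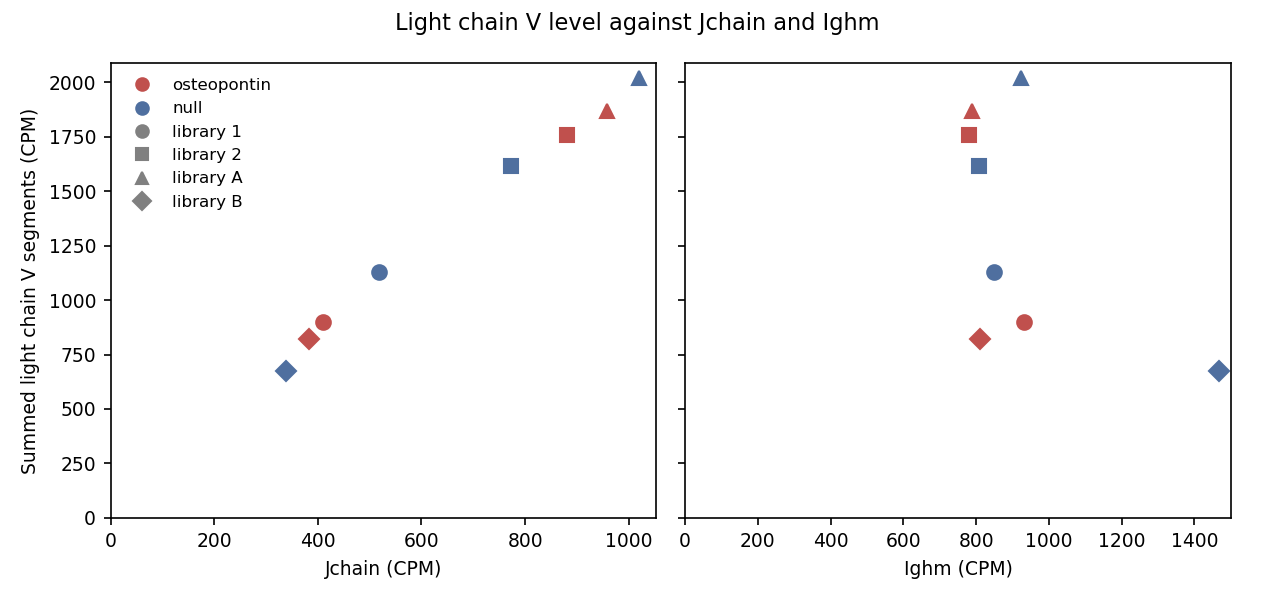
Summed light chain V level (CPM, vertical axis) against Jchain and against Ighm, the IgM heavy chain constant gene (CPM, horizontal axes), with 1 point per library, osteopontin listed before null. The points rise along a line for Jchain (r = 0.997) and show no such line for Ighm, where null library B lies apart at the right.

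Iglv1 was the most used segment in all 8 libraries. It took 36.3%, 39.8%, 33.8% and 27.7% of the light chain V reads in osteopontin libraries 1, 2, A and B, against 36.8%, 40.6%, 42.0% and 15.3% in null libraries 1, 2, A and B. Null library B lay below every other library, and the remaining 7 stayed within 27.7% and 42.0%. The mean was 34.4 ± 5.12% with osteopontin and 33.7 ± 12.5% in null libraries (SD, n = 4 each). Corrected for transcript length, as a share of the light chain V total in TPM (abundance per transcript length, scaled to a common sum), Iglv1 averaged 32.1% over the 8 libraries and again ranked first.

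Iglv1 made up 96.1% to 99.5% of the lambda V reads. Iglv2 had 1.20%, 0.352%, 0.178% and 0.0149% of the light chain V reads in osteopontin libraries 1, 2, A and B, against 0.238%, 0.134%, 0.831% and 0.154% in null libraries 1, 2, A and B. The highest values of both groups stood well above the rest, and the groups overlapped. Iglv2 shared 41.8% of its 31-base words with the far more abundant Iglv1, so the split of reads between them is uncertain. Iglv3 averaged 0.171 ± 0.0659% with osteopontin and 0.130 ± 0.0565% in null libraries (SD, n = 4 each).

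Constant-region reads come from the same spliced light chain mRNA as V reads but from another stretch of it, with no V sequence to tell apart. In the mouse, Iglv1 usually joins the J and constant genes of Iglc1 or Iglc3. Lambda constant genes (Iglc1, Iglc2 and Iglc3) took 30.8%, 32.1%, 25.9% and 24.2% of light chain constant reads in osteopontin libraries 1, 2, A and B, against 32.7%, 32.4%, 34.0% and 19.9% in null libraries 1, 2, A and B. Null library B was again the lowest, and osteopontin library B the lowest of its group. Iglc1 reached 384 ± 188 CPM with osteopontin and 439 ± 284 CPM without (SD, n = 4 each), and Iglc4 was listed at 0 in all 8 libraries.

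The order of the 8 libraries by Iglc1 CPM matched their order by Iglv1 CPM (r = 0.994, rho = 1, exact permutation test, adjusted p = 9.92e-05 for both, and r = 0.997 without the 2 farthest libraries). There were 1.11 to 1.24 Iglv1 reads for each Iglc1 read. Kappa V reads per Igkc read likewise ranged only over 0.696 to 0.793. All lambda V reads per lambda constant read ranged more widely, from 0.550 in null library B to 1.13 in osteopontin library 2. Iglv2 and Iglv3 together had 0.0160 to 0.213 reads per read of Iglc2 and Iglc3. This last ratio is not a matched one, because Iglc3 is also joined by Iglv1.

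The libraries differed more in lambda than in kappa level. Lambda V segments ranged from 105 CPM in null library B to 869 CPM in null library A, which is 8.29-fold, whereas kappa V segments ranged over 2.20-fold, between 560 and 1232 CPM. Without null library B the lambda range was 3.80-fold, down to 228 CPM in osteopontin library B, and the kappa range was 2.20-fold. Igha reads per Ighm read were also lowest in null library B, at 1.28, against up to 7.43 elsewhere.

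**Figure D2:**
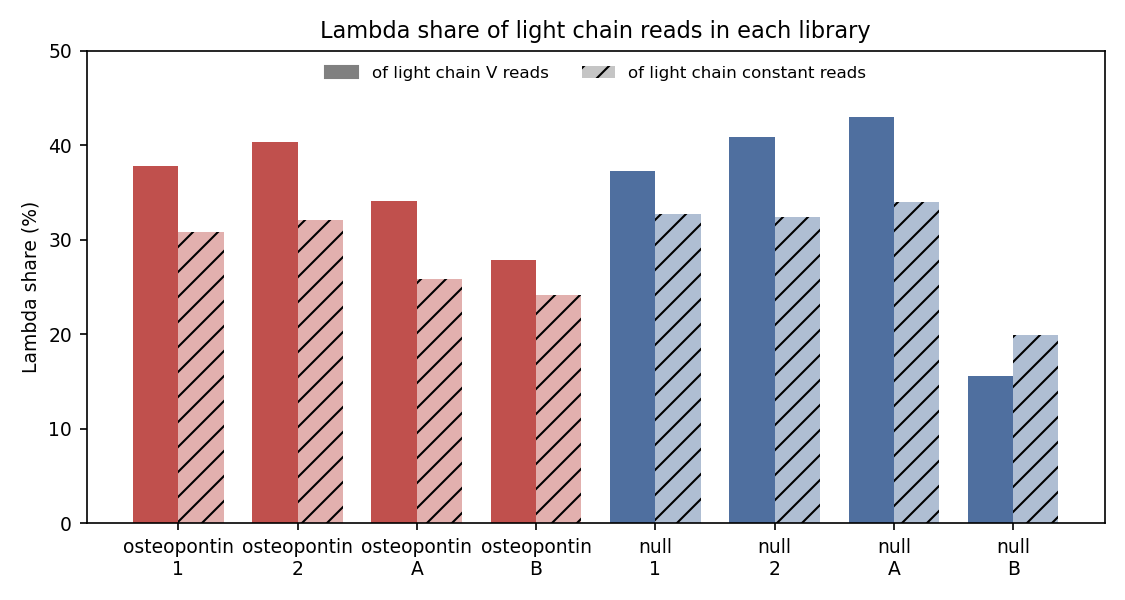
Lambda share (%) of light chain V reads and of light chain constant reads in each library, the 4 osteopontin libraries left of the 4 null libraries. Both readouts are lowest in null library B, at 15.6% of V reads and 19.9% of constant reads.

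Below Iglv1, usage was spread over many kappa segments. A mean share of at least 1% was reached by 24 members, 67 had at least 0.1%, and 37 had less. The 12 most used members together held 65.0% of the light chain V reads, of which the 11 kappa segments held 30.9%. By kappa family, the 26 Igkv4 members held 12.6%, the 11 Igkv8 members 11.3%, the 9 Igkv6 members 8.90% and the 10 Igkv1 members 8.14% on average. These shares are of reads and are not corrected for length. All member transcripts were 286 to 501 bases long.

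**Figure D3:**
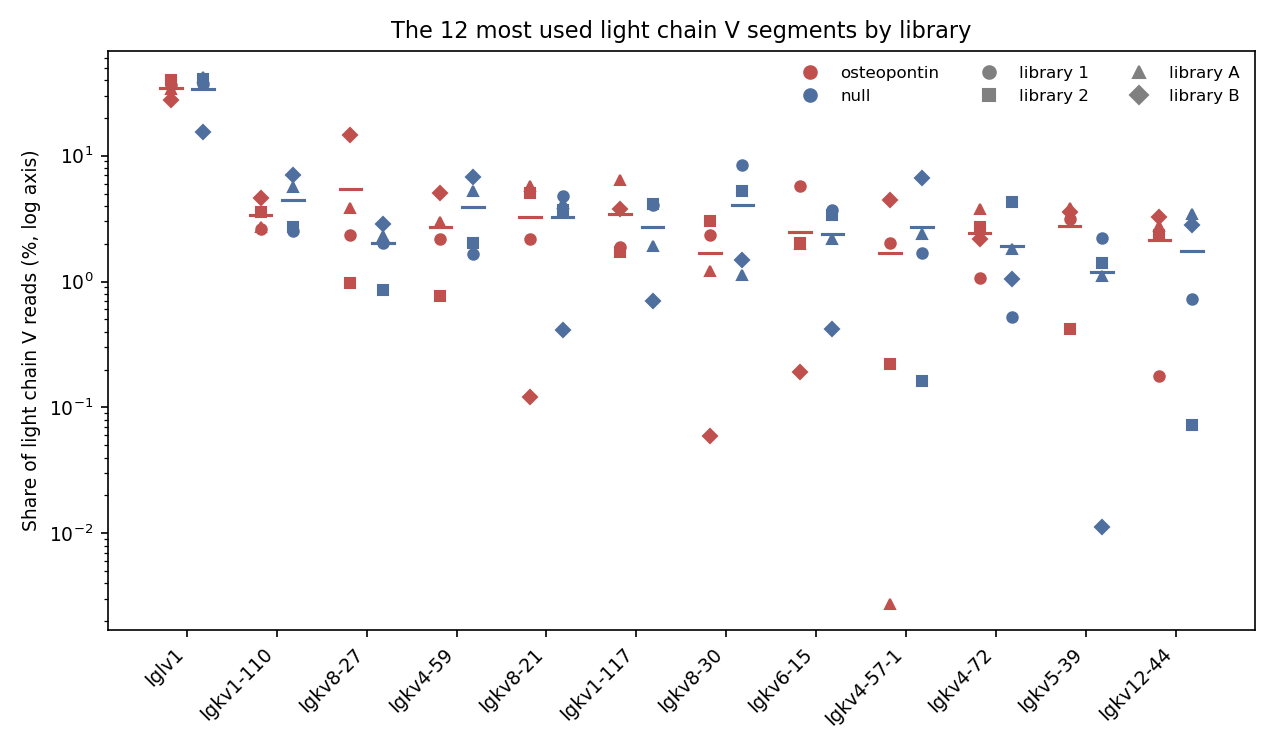
Share of light chain V reads (%, log axis) of the 12 most used segments, 1 point per library, osteopontin left of null. Iglv1 lies between 15.3% and 42.0% in all 8 libraries, while most kappa segments spread over more than a factor of 10.

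Igkv1-110 was the most evenly used kappa segment among those with a mean of at least 1%. It took 2.63%, 3.59%, 2.70% and 4.57% of the light chain V reads in osteopontin libraries 1, 2, A and B, against 2.51%, 2.70%, 5.64% and 7.0% in null libraries 1, 2, A and B, a 2.79-fold range. Its near relative Igkv1-117 had 1.89%, 1.71%, 6.42% and 3.78% in osteopontin libraries 1, 2, A and B, against 4.08%, 4.16%, 1.92% and 0.696% in null libraries 1, 2, A and B. The groups overlapped for both.

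The other kappa segments differed in which libraries they were high. Igkv8-27 took 2.34%, 0.981%, 3.85% and 14.7% of the light chain V reads in osteopontin libraries 1, 2, A and B, against 2.02%, 0.858%, 2.30% and 2.88% in null libraries 1, 2, A and B. Osteopontin library B alone was far above the others, and the groups overlapped.

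Igkv8-30 took 2.36%, 3.05%, 1.22% and 0.0596% in osteopontin libraries 1, 2, A and B, against 8.37%, 5.20%, 1.13% and 1.49% in null libraries 1, 2, A and B. It was high in null libraries 1 and 2. Its family member Igkv8-21 had 2.19%, 5.02%, 5.79% and 0.122% in osteopontin libraries 1, 2, A and B, against 4.76%, 3.71%, 4.18% and 0.410% in null libraries 1, 2, A and B. Igkv8-21 was low in the library named B of both groups and above 2% in the other 6.

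Igkv6-15 was likewise low in both libraries named B, with 5.77%, 2.01%, 1.99% and 0.191% in osteopontin libraries 1, 2, A and B, against 3.67%, 3.35%, 2.17% and 0.423% in null libraries 1, 2, A and B. Igkv3-12 was high in the same 2 libraries, at 3.01% in osteopontin library B and 9.72% in null library B, with 0.0396% to 0.226% in the other osteopontin libraries and 0.0133% to 0.486% in the other null libraries. Igkv4-91 showed this too, with 2.31% in osteopontin library B and 7.35% in null library B, and at most 0.609% elsewhere. Igkv4-59 had its group's highest share in the libraries named B as well, at 5.03% with osteopontin and 6.71% without, though null library A reached 5.22%.

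Igkv3-7 was high in the libraries named 2, at 7.85% in osteopontin library 2 and 5.05% in null library 2. It had 0.0797%, 0.0110% and 0.0423% in osteopontin libraries 1, A and B, against 1.47%, 0.332% and 0.0226% in null libraries 1, A and B. Igkv4-57-1 did not follow the names in this way. It was at 4.46% in osteopontin library B and 6.61% in null library B, but also at 2.37% in null library A while 3 reads were assigned to it in osteopontin library A.

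Igkv4-72 ranged over 1.06% to 3.74% with osteopontin and 0.524% to 4.25% in null libraries, Igkv5-39 over 0.421% to 3.86% with osteopontin and 0.0113% to 2.21% in null libraries, and Igkv12-44 over 0.179% to 3.25% with osteopontin and 0.0720% to 3.43% in null libraries. Their groups overlapped throughout. The most used kappa segment was thus Igkv6-15, Igkv3-7, Igkv1-117 and Igkv8-27 in osteopontin libraries 1, 2, A and B, against Igkv8-30 in null libraries 1 and 2, Igkv1-110 in null library A and Igkv3-12 in null library B.

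Of the 23 kappa members with a mean share of at least 1%, all 23 had reads in every library and 22 had at least 3 in each. Of these 22, 16 differed at least 10-fold between their highest and lowest library, with a median of 47.6-fold. The highest library was null B for 7 of the 23, osteopontin A for 5, osteopontin 1 and osteopontin 2 for 3 each, osteopontin B for 2, and null 1, null 2 and null A for 1 each. On the scale of log2 CPM, the SD within groups had a median of 1.56 over the 26 tested members with a mean of at least 5 CPM, against 0.169 over the 10461 tested genes at that level.

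**Figure D4:**
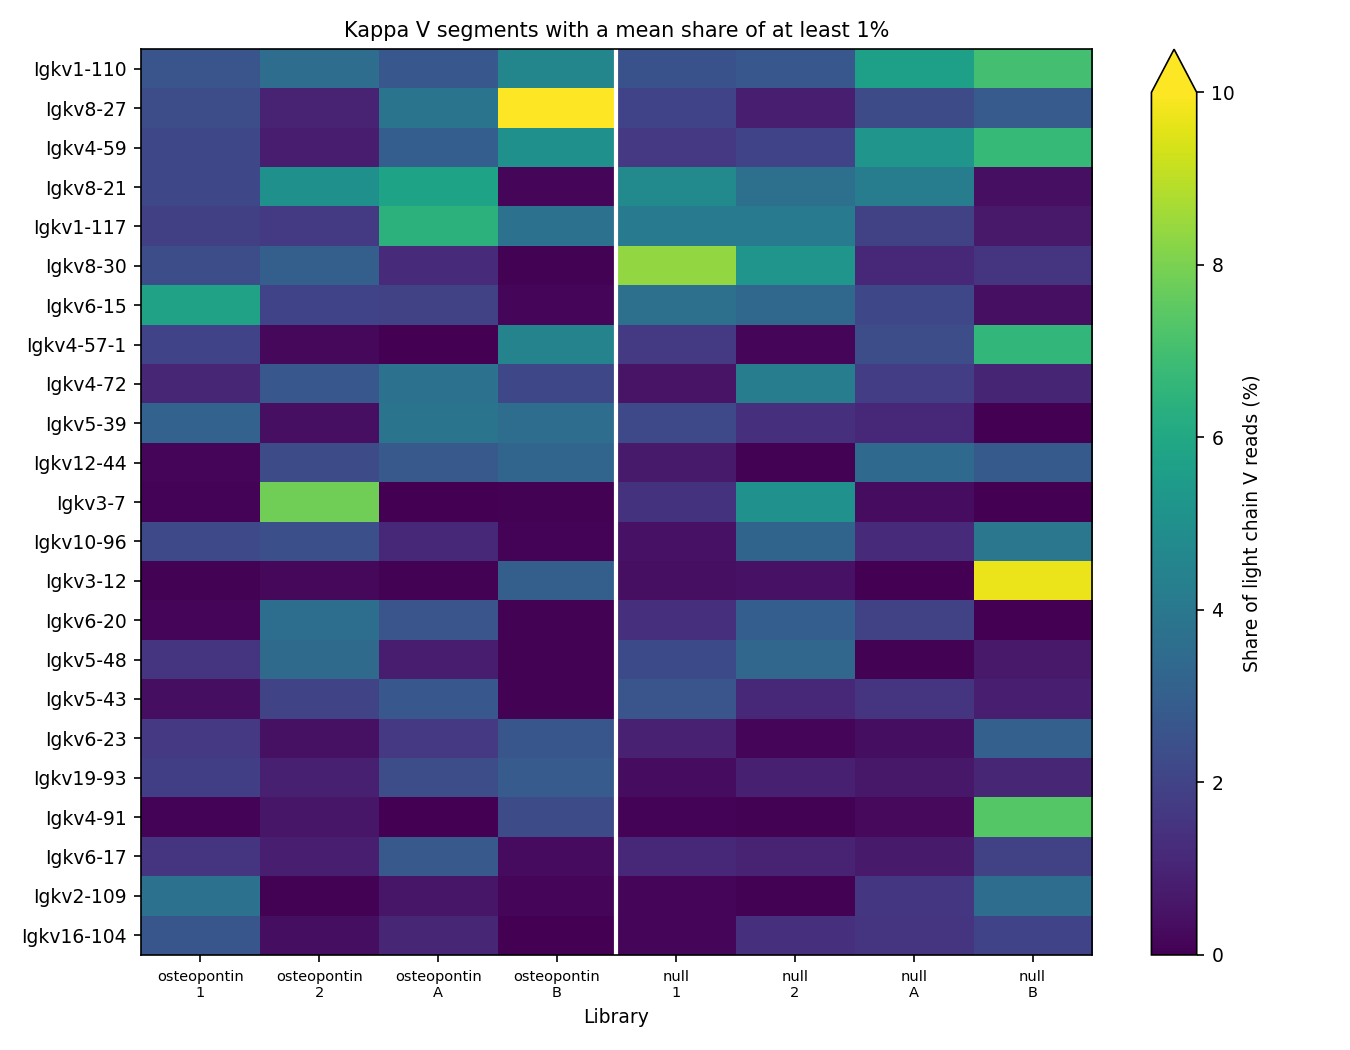
Share of light chain V reads (%) of the 23 kappa segments with a mean share of at least 1% (rows) in each library (columns, osteopontin left of null). The colour scale ends at 10%, which the 14.7% of Igkv8-27 in osteopontin library B exceeds. High values stand in 1 or a few libraries for most segments, such as Igkv3-7 in both libraries named 2 and Igkv3-12 in both named B.

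Usage profiles were compared by the Bray-Curtis distance, which is 0 for equal shares and 1 when no segment is shared. Between the osteopontin and the null library of the same name the distance over light chain V segments was 0.292 for the name 1, 0.193 for 2, 0.300 for A and 0.486 for B. The median was 0.296 for these 4 pairs, 0.377 for pairs of osteopontin libraries, 0.411 for pairs of null libraries and 0.373 for pairs across groups with different names. For 4 of the 8 libraries the nearest profile was that of the same name in the other group. Over kappa segments alone, same-name distances were 0.457, 0.315, 0.411 and 0.525 for the names 1, 2, A and B, and 5 of 8 libraries were nearest to their namesake.

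T cell receptor beta V segments, the corresponding genes of T cells, gave shorter distances: 0.0754, 0.0839, 0.0885 and 0.160 between libraries of the same name 1, 2, A and B, with a median of 0.149 over all 28 pairs. The median over all 28 pairs was 0.338 for light chain V and 0.540 for heavy chain V segments. Distances are descriptions without a test, and the sets differ in read number and in gene number (22 T cell receptor beta, 104 light chain and 113 heavy chain segments).

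**Figure D5:**
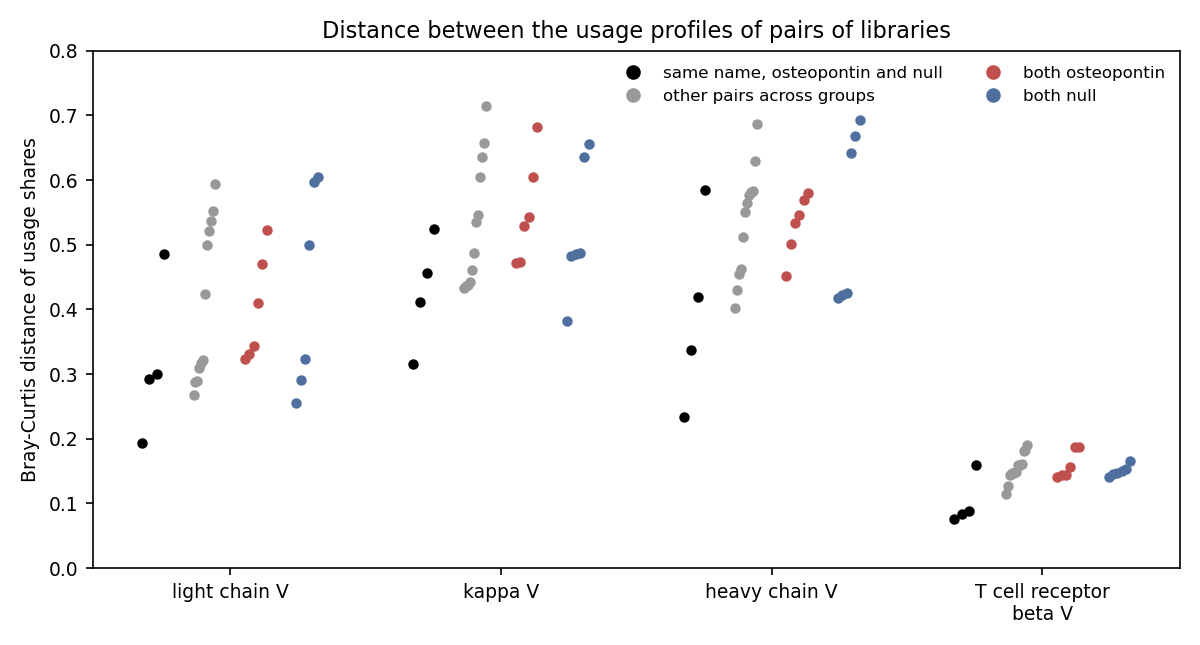
Bray-Curtis distance of usage shares (vertical axis) for the 28 pairs of libraries, by gene set and by kind of pair. Light chain V pairs span 0.193 to 0.605, while T cell receptor beta pairs stay between 0.0754 and 0.191.

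Evenness was summarised by the effective number of segments (the inverse Simpson index, the number of equally used segments that would give the same concentration). In osteopontin libraries 1, 2, A and B this number came to 6.84, 5.65, 7.48 and 8.57, against 6.48, 5.49, 5.24 and 16.1 in null libraries 1, 2, A and B. Null library B stood apart, and the other 7 libraries lay between 5.24 and 8.57. Among kappa segments alone the number was 13.0 to 27.8 and null library B was at 18.4, within that range. The lower Iglv1 share of null library B thus coincided with its higher number over all segments.

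Over kappa and lambda segments together, light chain usage was more concentrated than that of the heavy chain, which did not hold for kappa segments alone. Heavy chain V segments had effective numbers of 8.94 to 15.3, and the light chain number was lower by 0.70 (SD 0.41) on the log2 scale, in 7 of 8 libraries (exact sign-flip permutation test, two-sided, adjusted p = 0.0156). Against T cell receptor beta V segments, with 10.6 to 15.1, it was lower by 0.86 (SD 0.47), again in 7 of 8 libraries (exact sign-flip permutation test, adjusted p = 0.0156). The exception was null library B in both. Without the 3 lambda segments the direction turned: the effective number of kappa segments, 13.0 to 27.8, was above that of heavy chain segments in 7 of 8 libraries and above that of T cell receptor beta segments in 7 of 8. An effective number cannot exceed the number of segments in its set, which was 22 for T cell receptor beta, 113 for heavy chain and 101 for kappa. Set size therefore limits these comparisons. The smallest p that this design allows is 0.00781.

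Position along the kappa locus was described by splitting the 101 segments at the median position number of 61. Segments near the J genes, from which a first rearrangement often draws, took 63.7 ± 4.97% of kappa V reads with osteopontin and 62.5 ± 10.2% in null libraries (SD, n = 4 each). Of these 2 parts of the locus, the J-proximal one had 51 members. Minus-strand segments, which join Igkj by inversion, took 68.1 ± 5.13% of kappa V reads with osteopontin and 65.3 ± 8.25% in null libraries, and make up 62 of the 100 placed segments.

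Osteopontin and null libraries were compared for each segment with edgeR's quasi-likelihood test across all 18631 tested genes. The filter on low counts kept 73 of the 104 members, with 35 fitted higher and 38 lower with osteopontin and a median log2 fold change of −0.10, against 0.00 over all tested genes. At an adjusted p under 0.05, 0 members were called, which is also the background: 0 of all tested genes (0%) were called, and the smallest adjusted p over all genes was 0.470. At an unadjusted p under 0.05 there were 2 members higher and 2 lower, 4 of 73, against 3.93% of all tested genes. DESeq2 called 1 member of 73, against 39 of all tested genes (0.209%), and limma voom called 0 members and 0 genes. With the light chain V total as library size, edgeR called 1 member, against 0.123% of all tested genes. The median 95% interval of a member reached 3.69 to each side on the log2 scale. In a typical segment, log2 changes smaller than this could not be told from 0, even before adjustment.

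CPM did not overlap between groups for 2 of the 73 members, against 3.53% of all tested genes. Igkv19-93 had 16.6, 15.7, 43.9 and 23.5 CPM in osteopontin libraries 1, 2, A and B, against 3.91, 14.4, 13.2 and 7.18 CPM in null libraries 1, 2, A and B. All osteopontin values lay above all null values, by 1.36 on the log2 scale (95% interval 0.16 to 2.56, edgeR quasi-likelihood test, adjusted p = 1.00), but its shares of the light chain V reads overlapped. Igkv2-137 had 1.29, 1.00, 0.0344 and 0.189 CPM in osteopontin libraries 1, 2, A and B, against 1.44, 8.89, 2.04 and 23.5 CPM in null libraries 1, 2, A and B. Its fitted log2 change was −3.83 (95% interval −7.15 to −0.50, adjusted p = 1.00), and null libraries 2 and B were high. The shares of Igkv2-137 among the light chain V reads overlapped between groups too. The value of osteopontin library A is 2 reads, under that library's floor of 3 reads.

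Igkv17-127 had the smallest unadjusted p of any member. In osteopontin libraries 1, 2, A and B its level reached 2.89, 6.53, 23.0 and 3.67 CPM, against 0.894, 1.12, 3.20 and 2.18 CPM in null libraries 1, 2, A and B. Osteopontin library A was the highest, and the lowest osteopontin library was below the highest null one. The log2 fold change was 2.28 (SE 0.72, edgeR quasi-likelihood test, adjusted p = 1.00), and DESeq2 gave it an adjusted p of 0.0380. Igkv3-4 was fitted at 2.11, Igkv12-89 at −4.56 and Igkv4-53 at −3.50 on the log2 scale, each with an adjusted p of 1.00 in the same edgeR fit. For Iglv1 the log2 fold change was −0.10 with a 95% interval of −1.78 to 1.57 (adjusted p = 1.00).

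None of the 8 measures of the whole set differed between groups beyond the spread of the libraries. These were the summed level, the lambda share, the effective number, the share of the most used segment and of the 5 most used, the number of segments with at least 0.1%, the V reads per constant read and the J-proximal share. Exact permutation tests over the 70 arrangements of 4 against 4 libraries (two-sided) gave p from 0.714 to 1, an adjusted p of 1 for each, and could not go below 0.0286. The lambda share was 35.0 ± 5.43% with osteopontin and 34.2 ± 12.6% in null libraries, and the 5 most used segments took 55.4 ± 3.54% with osteopontin and 55.9 ± 6.63% in null libraries (SD, n = 4 each). There were 61, 49, 40 and 34 segments with at least 0.1% in osteopontin libraries 1, 2, A and B, against 51, 43, 47 and 46 in null libraries 1, 2, A and B. Without null library B, the lambda share was lower with osteopontin by 5.35 percentage points (exact permutation test, p = 0.171), which turned the direction of that difference.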

How the data were processed

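RNA of 8 libraries was measured by stranded Illumina sequencing, per the labels' protocols. Per the submitters' processing notes the tool was Salmon. Which version, annotation release and build were used is not given in the sources used here. For each library the authors deposited an estimated count and a TPM value (length-corrected abundance) for each of 133618 transcripts. Salmon assigned reads to germline V transcripts, so reads of mutated segments or across V-J junctions may be lost or misplaced.

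Estimated counts were summed per gene, and usage is a member's percent of the light chain V total. CPM uses the plain library total. The transcript identifiers and lengths of all 104 members equalled those of GENCODE M21 (GRCm38), from which positions and sequences were read, and 103 had a position. Counts rounded to whole numbers were tested with edgeR 4.0.16 (filterByExpr with a minimum count of 10, TMM, robust quasi-likelihood fit, group as the only term, Benjamini-Hochberg over all tested genes). DESeq2 1.42.0, limma 3.58.1 (voom), other scalings, no filter, a replicate block, a naming covariate (digit or letter) and leaving out libraries were alternatives. For single values per library, exact permutation tests were used. The fits were tested on simulated data.

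Named members are the 12 with the highest mean share, the most used of each library, all lambda members, those with at least 5% in 1 library, and up to 3 per direction with the smallest p. Igkv4-71 and Igkv8-24 fall outside this rule. The members, lists and tests were chosen with earlier results of these data known. The results of 1 listed B cell gene are not reported here, and it was left out of the B cell sum.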

Additional observations from a re-analysis of the deposited data

Results flagged for a closer look

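The 8 measures and the 23 named segments gave 62 groups of 4 libraries, and in 10 of them the highest or lowest library stood apart by Dixon's criterion. Chance gives about 1 in 20 groups, but segments were named partly for a high share in 1 library or a small p, so the count cannot be read against that.

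Null library B had an effective number of 16.1, against 5.24 to 6.48 in the other null libraries. It also had 9.72% Igkv3-12 (0.0133% to 0.486% in the others), 7.35% Igkv4-91 (0.0424% to 0.273%) and 3.49% Igkv2-137 (0.101% to 0.551%) of the light chain V reads. Osteopontin library B had 3.01% Igkv3-12, against 0.0396% to 0.226% in the other osteopontin libraries. Osteopontin library 2 had 7.85% Igkv3-7, against 0.0110% to 0.0797%. Osteopontin library A had 1.23% Igkv17-127, against 0.320% to 0.447%. In null library A, Iglv2 was at 0.831% (0.134% to 0.238% in the others) and Igkv4-53 at 1.71% (0.0722% to 0.197%). Null library 1 had 0.468% Igkv12-89, against 0 to 0.0626%.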

How the results depend on the processing

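No measure passed the test under any of its alternatives (smallest adjusted p = 0.343, exact permutation tests). Of 96 measure values under alternatives, 69 kept their direction and 27 reversed. Not all reversed differences were smaller than the spread between libraries. Without null library B the most used segment reversed to −5.41 points, against an SD of 5.12 among the osteopontin libraries. The effective number reversed to 1.40 in that setting, against an SD of 1.22 among the osteopontin libraries. Leaving out 1 library at a time, the osteopontin minus null difference ranged over −252 to 197 CPM for the summed level, −5.35 to 3.79 percentage points for the lambda share, −2.21 to 1.40 for the effective number, −5.41 to 3.5 points for the most used segment, −3.72 to 1.09 points for the 5 most used, −5.75 to 3.25 for the number of segments with at least 0.1%, −0.0135 to 0.0426 for V reads per constant read and −2.67 to 5.58 points for the J-proximal share. Without both libraries named B, a setting chosen after the data were seen, the lambda share differed by −2.95 points, the effective number by 0.921, the most used segment by −3.17 points, the number of segments by 3 and the J-proximal share by −2.94 points. The cause was not tested.

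Over 19 fits, members were called in 2: DESeq2 called 1 higher (Igkv17-127), with 0.209% of all tested genes called, and the light chain V total as library size called 1 lower (Igkv8-24, named after its values were seen), with 0.123% of all tested genes called. Of 414 log2 fold changes of the 23 named members under alternatives, 376 stayed as in the original fit, 37 reversed and 1 passed the threshold, and 11 members kept their direction throughout. Limma voom reversed Iglv1 (0.13), Igkv8-21 (−0.28) and Igkv3-7 (−1.55). The light chain V total as library size reversed Iglv1 (0.030), Igkv6-15 (0.049) and Iglv2 (0.36). The naming covariate reversed Igkv3-7 (−1.11) and Igkv4-91 (0.47), and leaving out both libraries named B reversed Igkv4-91 (0.64).

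Leaving out 1 library at a time, the log2 fold change ranged over −0.45 to 0.26 for Iglv1, −0.65 to 0.13 for Igkv1-110, −0.60 to 0.73 for Igkv1-117, −1.03 to 0.0024 for Igkv4-59, −0.47 to 0.52 for Igkv8-21, −0.56 to 0.22 for Igkv6-15, −0.24 to 1.14 for Igkv4-72, −0.091 to 1.67 for Igkv12-44, −5.95 to 2.16 for Igkv3-7, −3.49 to 0.81 for Igkv3-12, −1.89 to 1.62 for Igkv4-91 and −0.81 to 1.38 for Iglv2.

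With the replicate block, 0 members were called, and Iglv1 (0.10), Igkv8-21 (−0.39) and Igkv3-7 (−2.14) reversed. Deviations of same-named libraries from their group means correlated at 0.0710, 0.0487, 0.0436 and 0.123 over all tested genes for the names 1, 2, A and B. Over all genes each osteopontin library correlated best, among the null libraries, with its namesake, a hint from the data and not from the design. Over the 73 tested segments the correlations were −0.089, 0.301, −0.086 and 0.271, and osteopontin libraries 1 and A correlated best with null libraries A and 1. The names were not taken to pair the libraries. Depth sets a floor of 3 reads per segment and, with 4 libraries a group, single segments had wide intervals.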
